A study of Mus musculus with 6 samples.

Results

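The collagen chain genes are the 43 genes, of 23381 in the deposited table, whose symbol is Col, a type number, the letter a and a chain number. Their levels come from tumours grown in 10 week old Balb/c mice. Each mouse had received 500000 cells of 4T1, a mammary carcinoma line of this strain, in the inguinal mammary fat pad. Once tumours had formed, the Vismodegib group was given Vismodegib, a Smoothened inhibitor, at 2 mg per mouse, and the DMSO group was given this solvent alone as the vehicle control. Both groups were dosed 3 times weekly for 3 weeks, and neither carries a genetic change named in the labels. There were 3 Vismodegib and 3 DMSO libraries of whole tumours, which hold host cells beside the injected line, and the labels do not say that each came from its own animal. The p-values therefore measure the spread between these samples, which may be technical.

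Collagens are secreted or membrane proteins whose chains wind around each other into a triple helix. The fibril-forming types I, III and V give connective tissue its strength, type IV forms the sheet of basement membranes, type VI forms beaded filaments around cells, and smaller types bind to fibrils or anchor epithelium to the stroma below. In tumours most fibrillar collagen is made by fibroblasts and other mesenchymal cells, while carcinoma and endothelial cells also make basement membrane chains.

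Of the 43 chains, 20 had a mean of at least 0.5 RPKM (reads per kilobase of a gene's length, relative to all reads of that library) over the 6 libraries and were tested with limma, in a fit across all 11818 genes above this level. No chain passed at an adjusted p under 0.05 (limma with Benjamini-Hochberg adjustment), and 0% of all genes tested did. The smallest adjusted p of the chains in this limma fit was 0.99995. An unadjusted p under 0.05 was found in 3 chains, beside 2.25% of all genes tested. The differences of 18 of the 20 tested chains were above 0, that is, higher in Vismodegib. This held for 58.4% of all genes tested. The share over all genes was 47.8% with median-ratio scaling and 47.4% with quantile scaling, while 90% of the chains stayed above 0 under both. The median difference of the chains was 0.41 on the scale log2(RPKM + 0.5), against 0.05 over all genes tested. The largest differences were in Col3a1, Col1a2 and Col1a1, the chains of the main interstitial fibrils, and the lowest was in Col18a1, a basement membrane chain.

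The library totals recovered from the steps of the RPKM values were 41600000, 42700000 and 58000000 reads for Vismodegib replicates 1, 2 and 3, and 37500000, 34800000 and 40500000 reads for DMSO replicates 1, 2 and 3. At these totals the tested chains rested on an estimated 37.4 to 32662 reads per library, from the lowest value of Col27a1 to the highest of Col1a1. The carcinoma genes Epcam, Krt8 and Krt18 were detected in every library, Epcam at 470, 449 and 251 RPKM in Vismodegib and at 146, 191 and 288 RPKM in DMSO. In whole tumours, fewer cells of a type and less RNA per cell cannot be told apart.

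The 3 chains of the main interstitial fibrils, types I and III, had the largest differences. Col1a1 encodes the α1 chain of type I collagen (ENSMUSG00000001506.10, chromosome 11, 94936224 to 94953042, plus strand, mm10). It measured 57.1, 34.6 and 94.96 RPKM in Vismodegib replicates 1, 2 and 3, against 28.8, 42.3 and 32.8 RPKM in DMSO replicates 1, 2 and 3. Vismodegib replicates 1 and 3 lay above all DMSO libraries and Vismodegib replicate 2 lay among them. The log2 difference was 0.74 (SE 0.38, 95% interval from -0.12 to 1.59), and 0.37 without Vismodegib replicate 3. Col1a2 encodes the α2 chain that joins α1 in the type I heterotrimer (ENSMUSG00000029661.16, chromosome 6, 4504814 to 4541544, plus strand). It measured 29.9, 18.6 and 44.8 RPKM in Vismodegib replicates 1, 2 and 3, against 14.8, 12.2 and 15.8 RPKM in the DMSO libraries. The groups did not overlap, and Vismodegib replicate 3 was the highest. Its mean of 31.1 ± 13.2 RPKM in Vismodegib and 14.2 ± 1.86 RPKM in DMSO (SD, n = 3 each) gave a log2 difference of 1.02 (SE 0.34, 95% interval from 0.25 to 1.79). Col3a1, whose product forms type III homotrimers in the thin fibrils of soft tissue (ENSMUSG00000026043.18, chromosome 1, 45311538 to 45349706, plus strand), measured 24.2, 11.9 and 23.8 RPKM in Vismodegib replicates 1, 2 and 3. In DMSO replicates 1, 2 and 3 it was at 5.34, 13.3 and 6.40 RPKM. The groups overlapped because DMSO replicate 2 lay above Vismodegib replicate 2. Its log2 difference of 1.25 (SE 0.41, 95% interval from 0.33 to 2.172) was the largest of all chains. With library weights it passed (1.24, limma, adjusted p = 0.039). That setting called 420 of the 11818 genes tested. It gave DMSO replicate 3 a weight of 7.28, against 0.32 for DMSO replicate 1 and 0.32 for DMSO replicate 2.

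**Figure D1:**
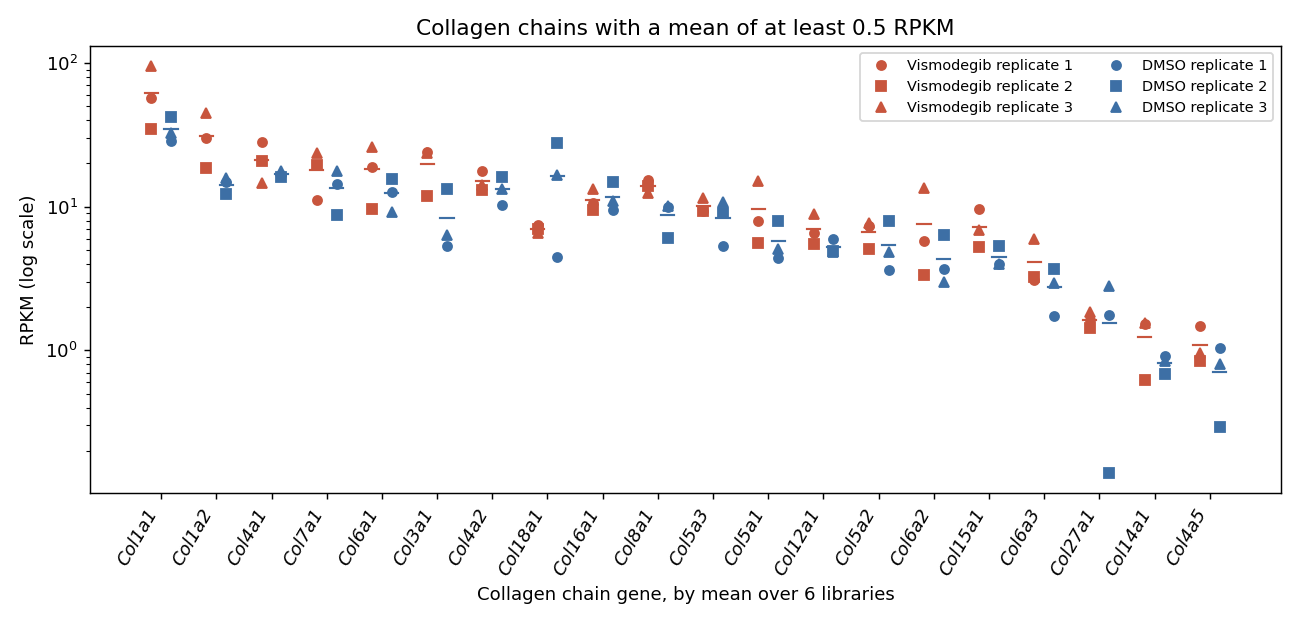
RPKM of the 20 tested collagen chains (log axis), ordered from left to right by mean over the 6 libraries, with Vismodegib libraries in red left of DMSO libraries in blue; each point is a library, its shape gives the replicate and short lines give group means. Col1a2 and Col8a1 are the chains whose groups do not overlap, and the Col18a1 values of DMSO replicates 2 and 3 lie above all 3 Vismodegib values.

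The type I chains kept a near constant proportion to each other. The ratio of Col1a1 to Col1a2 RPKM was 1.91, 1.86 and 2.12 in Vismodegib replicates 1, 2 and 3, against 1.94, 3.47 and 2.08 in DMSO replicates 1, 2 and 3. All libraries except DMSO replicate 2 thus lay between 1.86 and 2.12. In that library Col1a1 was the highest and Col1a2 the lowest of the DMSO group. The ratio of Col3a1 to Col1a1 was 0.42, 0.34 and 0.25 in Vismodegib and 0.19, 0.31 and 0.19 in DMSO, so that these groups overlapped.

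The promoters of the 3 chains with the smallest unadjusted p, and of Col18a1, whose difference was the lowest, are shown so that the chains at both ends can be compared. For Col1a1 no window was used here. Each is the 250 bases before a start site listed by RefSeq (GRCm38.p6), written 5′ to 3′ on the gene's strand. The capitals mark every match, on either strand, to the TATA box letters TATAAA, the CCAAT box letters CCAAT, which the factor NF-Y binds, and the GC box letters GGGCGG, which Sp1 family factors bind. The regions are chr6:4505368-4505617 on the plus strand for Col1a2, chr1:45311288-45311537 on the plus strand for Col3a1, chr16:57754738-57754987 on the minus strand for Col8a1 and chr10:77166531-77166780 on the minus strand for Col18a1.
Col1a2: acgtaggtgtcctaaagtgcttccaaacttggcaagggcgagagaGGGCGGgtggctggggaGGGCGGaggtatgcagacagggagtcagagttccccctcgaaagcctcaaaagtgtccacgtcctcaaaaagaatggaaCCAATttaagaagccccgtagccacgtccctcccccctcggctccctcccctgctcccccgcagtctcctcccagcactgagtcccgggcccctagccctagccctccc
Col3a1: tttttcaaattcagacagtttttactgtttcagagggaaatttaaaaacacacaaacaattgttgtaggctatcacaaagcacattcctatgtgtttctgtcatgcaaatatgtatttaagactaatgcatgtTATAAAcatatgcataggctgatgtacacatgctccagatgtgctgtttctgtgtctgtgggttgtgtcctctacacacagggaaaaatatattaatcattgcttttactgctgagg
Col8a1: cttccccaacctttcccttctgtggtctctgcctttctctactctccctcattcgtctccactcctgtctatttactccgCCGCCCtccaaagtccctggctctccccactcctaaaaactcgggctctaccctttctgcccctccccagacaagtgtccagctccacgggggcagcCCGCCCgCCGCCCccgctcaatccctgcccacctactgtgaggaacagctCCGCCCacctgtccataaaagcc
Col18a1: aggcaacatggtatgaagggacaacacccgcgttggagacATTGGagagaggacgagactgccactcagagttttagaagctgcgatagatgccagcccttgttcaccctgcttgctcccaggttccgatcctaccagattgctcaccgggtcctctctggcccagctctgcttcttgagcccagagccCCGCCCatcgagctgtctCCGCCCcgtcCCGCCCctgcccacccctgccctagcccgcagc
None of these motifs occurred in all 3 chains with the smallest p, though GC box letters occurred in both Col1a2 and Col8a1. The Col1a2 window held 1 CCAAT match, at position -109 from the start site, and 2 GC box matches. In the Col3a1 window there was a single TATA match and neither of the other motifs, while Col8a1 had 4 GC box matches and Col18a1 had 3, with a CCAAT match at position -210. A second start site listed for Col18a1 held none of the motifs. Windows were found for 34 of the 43 chains, 37 windows in all. GC box letters occurred in 56.8% of the collagen windows, against 32.7% of all 32851 windows. The shares were 32.4% and 33.8% for CCAAT and 13.5% and 12.4% for TATAAA, so that these motifs were about as common in the collagen windows as in all windows. A match is a description of the letters and not a binding site.

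The other 4 tested fibrillar chains, Col5a1, Col5a2, Col5a3 and Col27a1, had smaller differences above 0. Col5a1 encodes the α1 chain of type V collagen, which sits inside type I fibrils and limits their width. It measured 7.98, 5.63 and 15.2 RPKM in Vismodegib replicates 1, 2 and 3, against 4.40, 7.91 and 5.09 RPKM in DMSO replicates 1, 2 and 3. The groups overlapped through Vismodegib replicate 2, and the log2 difference of 0.61 (SE 0.39) was 0.23 without Vismodegib replicate 3. Its partner Col5a2 was at 7.38, 5.04 and 7.66 RPKM in Vismodegib and at 3.60, 7.91 and 4.85 RPKM in DMSO, with a difference of 0.32. DMSO replicate 2 was the highest of the 6 libraries for Col5a2. Col5a3, the α3 chain of some type V trimers, was at 9.35, 9.33 and 11.6 RPKM in Vismodegib and at 5.33, 8.97 and 10.8 RPKM in DMSO, with a difference of 0.30. Col27a1, a fibrillar chain known from cartilage, was at 1.64, 1.44 and 1.84 RPKM in Vismodegib, within the DMSO values of 1.75, 0.14 and 2.78 RPKM. Col3a1 and Col5a2 lie tail to tail on chromosome 1, with 24614 bases between them. DMSO replicate 2 was the highest DMSO library for both, as it was for Col1a1, Col5a1 and Col6a1 on other chromosomes.

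**Figure D2:**
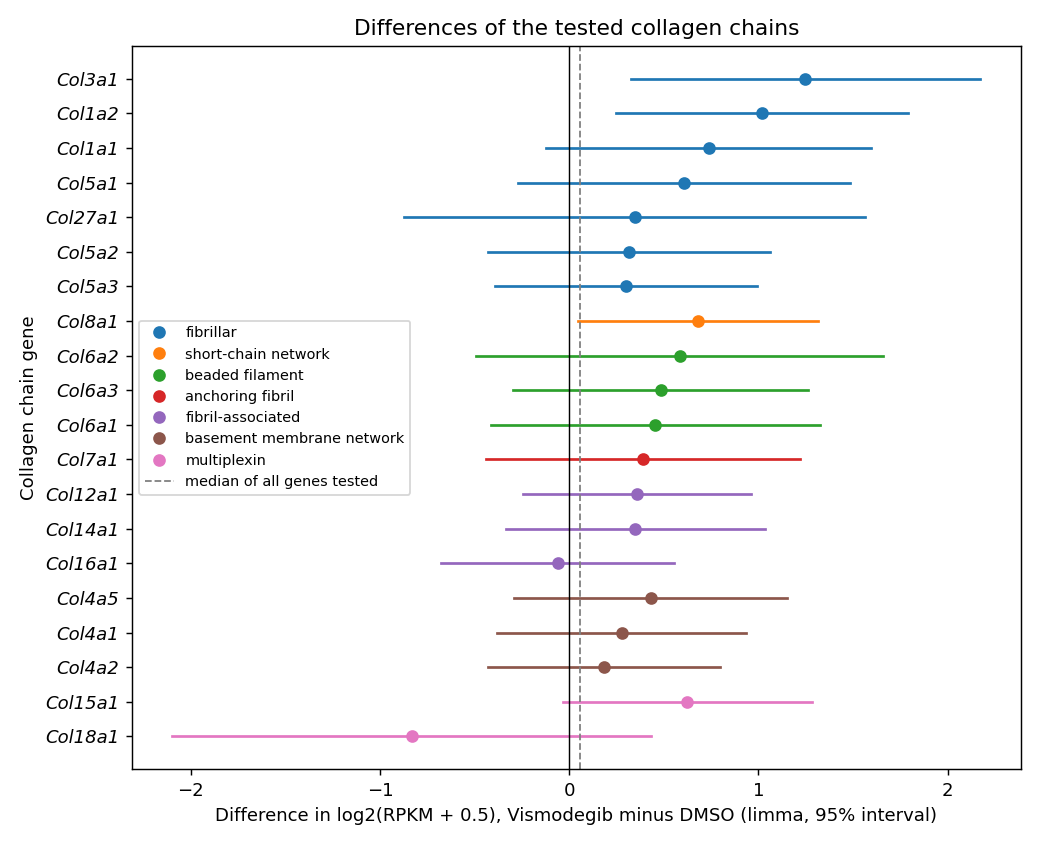
Difference in log2(RPKM + 0.5), Vismodegib minus DMSO, for the 20 tested chains, with the 95% interval of the limma fit (bars), coloured and grouped by class; the dashed line is the median of all genes tested. The points of 18 chains lie above 0, and the bars of Col3a1, Col1a2 and Col8a1 exclude 0 before adjustment.

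All 7 tested fibrillar chains had differences above 0, with a median of 0.61, although Col27a1 was below 0 with library weights and without DMSO replicate 2, and Col5a3 with library weights. The other 4 of the 11 were under the filter, and of these Col24a1 had the lower mean in Vismodegib, 0.015 RPKM, against 0.033 RPKM in DMSO. The 11 fibrillar chains together summed to 138, 87.1 and 200.1 RPKM in Vismodegib replicates 1, 2 and 3, against 64.7, 92.8 and 79.2 RPKM in DMSO replicates 1, 2 and 3. Vismodegib replicate 2 thus lay within the DMSO range. Fibrillar chains made up 49.6%, 43.4% and 57.1% of the summed collagen RPKM in Vismodegib and 40.3%, 41.9% and 41.2% in DMSO, without overlap. With Col15a1 and Col18a1 left out of the sum, a choice made after the values were seen, the shares were 52.9%, 46.2% and 59.4% in Vismodegib and 42.5%, 49.2% and 46.1% in DMSO, and the groups overlapped.

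Col8a1 was the other chain whose groups did not overlap. It encodes the α1 chain of type VIII, a short-chain network collagen of vessel walls and of the membrane under the corneal endothelium (ENSMUSG00000068196.5, minus strand of chromosome 16, 57624258 to 57754737). Its level was 15.5, 14.0 and 12.5 RPKM in Vismodegib replicates 1, 2 and 3, against 9.91, 6.04 and 10.2 RPKM in DMSO replicates 1, 2 and 3. All Vismodegib libraries lay above all DMSO libraries, Vismodegib replicate 2 included. The log2 difference was 0.68 (SE 0.28, 95% interval from 0.05 to 1.32), and 0.45 without DMSO replicate 2. Of the 20 tested chains, 2 had groups that did not overlap, both higher in Vismodegib. Among all genes tested, the groups did not overlap in 5.03%, and 4.29% were higher in Vismodegib without overlap. An unadjusted p under 0.05 was found in 3 chains, Col3a1, Col1a2 and Col8a1, and in 2.25% of all genes. Col8a2, the partner chain, was far lower, with 0.53 RPKM in Vismodegib replicate 3 and at most 0.10 RPKM in the other libraries. Col10a1, the related network chain of hypertrophic cartilage, was at most 0.037 RPKM.

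The 3 chains of the main type VI trimer, which lies around cells and binds basement membranes to the matrix, were all highest in Vismodegib replicate 3. Col6a1 measured 19.0, 9.68 and 25.8 RPKM in Vismodegib replicates 1, 2 and 3, against 12.6, 15.5 and 9.16 RPKM in DMSO replicates 1, 2 and 3. Its difference of 0.46 (SE 0.38) was 0.15 without Vismodegib replicate 3. Col6a2, on the same strand of chromosome 10 at a distance of 85161 bases, was at 5.76, 3.34 and 13.5 RPKM in Vismodegib and 3.66, 6.34 and 3.01 RPKM in DMSO. For both genes Vismodegib replicate 3 was the highest library and Vismodegib replicate 2 lay in the DMSO range. Col6a3, the large chain whose end gives the fragment endotrophin, was at 3.10, 3.26 and 5.95 RPKM in Vismodegib, against 1.73, 3.67 and 2.94 RPKM in DMSO, with a difference of 0.48 (SE 0.34). The chains Col6a4, Col6a5 and Col6a6, which can take the place of Col6a3, were at most 0.081 RPKM in any library.

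The 3 tested type IV chains of basement membranes had differences between 0.19 and 0.43, all with overlapping groups. Col4a1 and Col4a2, which form the heterotrimer of nearly all basement membranes, start head to head on chromosome 8, and the annotated genes share 22 bases. Reads in those bases cannot be assigned with certainty if strand was not used. Col4a1 measured 28.1, 20.9 and 14.5 RPKM in Vismodegib replicates 1, 2 and 3, against 16.6, 16.0 and 17.8 RPKM in DMSO replicates 1, 2 and 3. Its difference of 0.28 (SE 0.29) was 0.054 when Vismodegib replicate 1 was left out and 0.52 when replicate 3 was. In contrast to the fibrillar chains, Col4a1 was lowest in Vismodegib replicate 3. Col4a2 was at 17.8, 13.0 and 14.1 RPKM in Vismodegib and 10.3, 16.1 and 13.3 RPKM in DMSO, with a difference of 0.19 (95% interval from -0.43 to 0.80). The ratio of Col4a1 to Col4a2 was 1.58, 1.60 and 1.03 in Vismodegib and 1.61, 0.996 and 1.34 in DMSO. It was thus near 1 in Vismodegib replicate 3 and DMSO replicate 2, and the groups overlapped. Col4a5, a chain of the networks of kidney, skin and smooth muscle, was at 1.47, 0.85 and 0.96 RPKM in Vismodegib and 1.04, 0.29 and 0.80 RPKM in DMSO, with a difference of 0.43 (SE 0.32). Col4a6, its head-to-head neighbour on the X chromosome, was at most 0.087 RPKM, and Col4a3 and Col4a4, the chains of the mature glomerular network, at most 0.032 RPKM.

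The multiplexins, basement membrane chains whose ends can be released as anti-angiogenic fragments, went apart from each other. Col18a1, the source of endostatin (ENSMUSG00000001435.15, minus strand of chromosome 10, 77052178 to 77166548), had 7.51, 6.96 and 6.57 RPKM in Vismodegib replicates 1, 2 and 3, against 4.43, 27.9 and 16.5 RPKM in DMSO replicates 1, 2 and 3. The Vismodegib libraries lay close together between the lowest and the middle DMSO library. Its log2 difference was -0.83 (SE 0.56, 95% interval from -2.10 to 0.43), the lowest of all chains. It was -1.55 without DMSO replicate 1 (limma, adjusted p = 0.117) and -0.29 without DMSO replicate 2. With library weights, a setting that called 420 genes and rested mostly on DMSO replicate 3 within its group, it was -1.12 and passed (limma, adjusted p = 0.046). Col15a1, which encodes the chain that holds restin (ENSMUSG00000028339.17, chromosome 4, 47208161 to 47313167, plus strand), was at 9.65, 5.22 and 6.91 RPKM in Vismodegib, against 4.00, 5.30 and 4.00 RPKM in DMSO. Vismodegib replicate 2 lay just under DMSO replicate 2, and the difference was 0.62 (SE 0.29). The ratio of Col18a1 to Col15a1 was 0.78, 1.33 and 0.95 in Vismodegib and 1.11, 5.26 and 4.13 in DMSO, so that only DMSO replicate 1 lay among the Vismodegib libraries. Col18a1 made up 2.69%, 3.47% and 1.88% of the summed collagen RPKM in Vismodegib and 2.76%, 12.6% and 8.59% in DMSO. The table gives a single value per gene, so the start sites of Col18a1 cannot be told apart.

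Col7a1, which forms the anchoring fibrils under squamous epithelium, was the fourth chain by mean level, at 11.1, 19.5 and 23.7 RPKM in Vismodegib replicates 1, 2 and 3 and at 14.3, 8.78 and 17.6 RPKM in DMSO replicates 1, 2 and 3. The groups overlapped widely, and the difference was 0.39 (SE 0.37), or -0.022 with library weights. Unlike the fibrillar chains, Col7a1 was lowest among the treated tumours in Vismodegib replicate 1. Of the fibril-associated chains, Col16a1 was at 10.6, 9.52 and 13.2 RPKM in Vismodegib and 9.45, 14.7 and 10.95 RPKM in DMSO. Its difference of -0.06 (95% interval from -0.68 to 0.56) was, with that of Col18a1, the only one below 0. Col12a1, which coats type I fibrils, was at 6.60, 5.52 and 8.84 RPKM in Vismodegib and 5.98, 4.93 and 4.86 RPKM in DMSO, with a difference of 0.36. Col14a1, a related fibril coat chain, was at 1.53, 0.62 and 1.54 RPKM in Vismodegib and 0.91, 0.68 and 0.85 RPKM in DMSO, with Vismodegib replicate 2 the lowest of all.

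The other 23 chains had means under 0.5 RPKM and were in no limma fit. Two-sided exact permutation tests of their log2 values gave p between 0.2 and 1, where 0.1 is the smallest that 3 against 3 allows. None had groups without overlap, where 5.57% of all genes under the filter did. Several were high in a single library. Col17a1, the transmembrane collagen of hemidesmosomes in basal epithelium, was at 0.14, 0.090 and 0.27 RPKM in Vismodegib and 0.018, 1.47 and 0.24 RPKM in DMSO, so that DMSO replicate 2 stood out. Col9a2 and Col9a3, chains of the type IX collagen of cartilage, were at 0.78 and 0.80 RPKM in Vismodegib replicate 1 and at most 0.29 RPKM elsewhere. Part of the Col9a3 exons, 6.07%, overlaps Tcfl5 on the other strand. Col11a2, a cartilage fibril chain that lay just under the filter with a mean of 0.495 RPKM, was at 0.74, 0.54 and 0.27 RPKM in Vismodegib and at 0.72, 0.13 and 0.58 RPKM in DMSO. In contrast, Col2a1, the main fibril chain of cartilage, was at most 0.013 RPKM, under 3 estimated reads in every library. Of the other chains, Col13a1, Col20a1, Col23a1 and Col28a1 had means between 0.10 and 0.22 RPKM. A further 14 chains, among them Col9a1, Col11a1, Col19a1, Col22a1, Col24a1 and Col26a1, had means under 0.05 RPKM, and 10 chains were listed at 0 in at least 1 library. At these depths 3 reads of a chain correspond to between 0.0051 and 0.031 RPKM, and 9 of the 23 chains were under 3 estimated reads in 3 or more libraries, where a difference was hardly detectable.

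Summed over all 43 chains, collagen RPKM was 279, 201 and 350 in Vismodegib replicates 1, 2 and 3, against 161, 222 and 192 in DMSO replicates 1, 2 and 3. The means were 277 ± 74.8 RPKM in Vismodegib and 192 ± 30.5 RPKM in DMSO (SD, n = 3 each), a ratio of 1.44. Vismodegib replicate 2 lay within the DMSO range, and the 5 most abundant chains made up 51.8% of the mean sum. The Vismodegib libraries differed among themselves. Vismodegib replicate 1 lay above all DMSO libraries in 12 of the 20 tested chains, Vismodegib replicate 3 in 13 and Vismodegib replicate 2 in 4. At the other end, DMSO replicate 1 was the lowest of the 6 libraries in 10 chains. When Vismodegib replicate 3 was left out, the median difference of the chains was 0.22, against 0.11 over all genes tested. When replicate 2 was left out it was 0.57, against 0.07 over all genes tested. Collagen transcripts are longer and richer in GC than most, with medians of 6285 bases and 56.5% GC over the tested chains, against 3031 bases and 50.3% GC over all genes tested. Across genes, deviations from each gene's mean correlated with GC at -0.22, -0.35 and 0.29 in Vismodegib replicates 1, 2 and 3. In DMSO replicates 1, 2 and 3 these correlations were -0.04, 0.21 and -0.15. The part of this trend in the spread between libraries was not tested. An alternative chosen after the data were seen removed the trends on GC and length from every library. The median of the chains was then 0.46, against 0.06 over all genes tested in that fit.

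**Figure D3:**
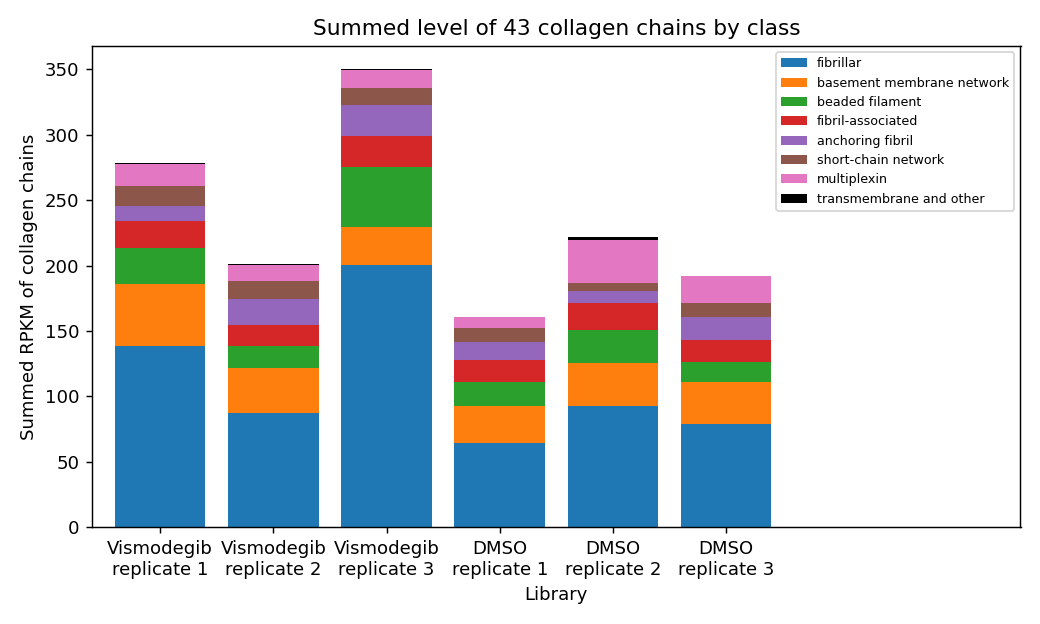
Summed RPKM of the 43 collagen chains in each library, stacked by class, with Vismodegib libraries left of DMSO libraries. The sums are 279, 201 and 350 RPKM in Vismodegib and 161, 222 and 192 RPKM in DMSO, and the fibrillar part (blue) varies most.

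Genes that fold, modify and export collagen did not pass the test either, with 0 members past the threshold in either direction in each of the lists that follow. In the list of chain folding and hydroxylation, 10 of 15 tested members had differences above 0, beside 58.4% of all genes tested. The median of this list was 0.14. P4ha2, a subunit of prolyl 4-hydroxylase, was at 5.04, 3.99 and 4.40 RPKM in Vismodegib and 2.87, 3.89 and 3.05 RPKM in DMSO, narrowly without overlap. Serpinh1, the collagen chaperone Hsp47, was at 63.2, 42.5 and 60.1 RPKM in Vismodegib and 38.9, 55.4 and 31.6 RPKM in DMSO. As in Col3a1, DMSO replicate 2 was the highest DMSO library and lay above Vismodegib replicate 2. Fkbp10, another chaperone of procollagen, and P3h4, a partner of lysyl hydroxylation, had differences of 0.60 and 0.39.

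In the list of export, propeptide removal and cross-linking, 12 of 16 tested members had differences above 0, beside 58.4% of all genes tested. The median of this list was 0.24. Pcolce, which enhances removal of the C-propeptide of fibrillar procollagens, had the largest difference of this list. It measured 59.8, 32.5 and 40.3 RPKM in Vismodegib replicates 1, 2 and 3, against 24.8, 22.2 and 12.6 RPKM in DMSO replicates 1, 2 and 3. The groups did not overlap, Vismodegib replicate 2 included, and the difference was 1.14 (SE 0.35, 95% interval from 0.36 to 1.93). Lox and Loxl2, which cross-link collagen through lysine oxidation, had differences of 0.66 and 0.46. Loxl4, of the same enzyme family, was at 1.53, 1.19 and 1.10 RPKM in Vismodegib and 0.73, 5.03 and 3.07 RPKM in DMSO. As in Col18a1, DMSO replicates 2 and 3 were high and DMSO replicate 1 was the lowest library.

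The list of fibril partners also holds basement membrane genes such as Nid1, Hspg2 and Lamb1. In it, 14 of 15 tested members had differences above 0, beside 58.4% of all genes tested, and the median was 0.58. In 5 of the members the Vismodegib and DMSO libraries did not overlap, beside 5.03% of all genes tested. Lum, a proteoglycan that spaces fibrils, measured 6.24, 3.26 and 7.38 RPKM in Vismodegib replicates 1, 2 and 3, against 2.21, 2.05 and 1.32 RPKM in DMSO replicates 1, 2 and 3, without overlap. Its difference was 1.33 (SE 0.34). Postn, Thbs2 and Fmod, which encode periostin, thrombospondin 2 and fibromodulin, had differences of 0.85, 0.81 and 1.04, and their groups did not overlap either.

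Members without overlap numbered 1 among the tested receptors, 0 among the proteases and 3 among the regulators of collagen genes, beside 5.03% of all genes. Over all genes tested, 58.4% had differences above 0. In the receptor and uptake list, 8 of 10 tested members had differences above 0, with a median of 0.13. Adgrg1, a receptor for type III collagen, was at 2.65, 2.30 and 2.54 RPKM in Vismodegib and 2.07, 1.25 and 1.31 RPKM in DMSO, without overlap. Mrc2, which takes up collagen into cells, and the receptor genes Ddr2 and Itga1 had differences of 0.61, 0.24 and 0.24. In the list of collagen-cleaving proteases and their Timp inhibitors, 8 of 10 tested members had differences above 0, with a median of 0.38. Timp1, Timp3 and Timp2 had differences of 0.67, 0.67 and 0.36, and Ctsk, the collagen-cleaving cathepsin of osteoclasts, had 0.77; the groups overlapped in each. Among 21 regulators of collagen genes, 15 had differences above 0, with a median of 0.13. Creb3l1, a transcription factor of type I collagen genes in bone, was at 3.57, 2.07 and 4.25 RPKM in Vismodegib and 1.60, 1.76 and 1.70 RPKM in DMSO, without overlap, with a difference of 0.75 (SE 0.29). Smad3, which carries TGF-β signals to collagen promoters, and Nfix had differences of 0.56 and 0.41, both without overlap, and Smad7 had -0.52.

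No marker of the cell types that a fat pad tumour can hold passed the test. The median difference was above 0 in 8 of the 10 marker lists and below 0 in the Schwann cell and macrophage lists. Over all genes tested the median was 0.05, and 58.4% had differences above 0. Of the fibroblast list, 9 of 10 markers were tested and 8 of these had differences above 0. Its summed level was between 61.3 and 116 RPKM in Vismodegib and between 45.4 and 69.5 RPKM in DMSO. The highest fibroblast sum was in Vismodegib replicate 1, where Thy1 alone gave 50.7 RPKM. The members differed in where they were highest. For Dcn, Dpt, Pdpn, Thy1 and Clec3b this was Vismodegib replicate 1, and for Lum, Mfap5 and Fap it was Vismodegib replicate 3. Pdgfra and Pi16 were highest in a DMSO library. In the pericyte and smooth muscle list all 9 tested markers of 11 had differences above 0, and the sum was between 165 and 388 RPKM in Vismodegib and between 112 and 231 RPKM in DMSO. The sum was highest in Vismodegib replicate 3, where Tagln and Acta2 made up most of it, at 267 and 79.5 RPKM. Pdgfrb, Notch3, Cnn1 and Des were also highest in that library. Rgs5, Cspg4, Kcnj8, Abcc9 and Myh11 were highest in Vismodegib replicate 1, and Abcc9 and Myh11 were under the filter. Endothelial markers had 5 of 5 tested members above 0, with sums between 48.5 and 117 RPKM in Vismodegib and between 32.4 and 179.9 RPKM in DMSO. Cldn5 alone gave 150 RPKM of the highest endothelial sum, in DMSO replicate 1. Adipocyte markers had sums of 97.5, 77.3 and 10.8 RPKM in Vismodegib replicates 1, 2 and 3, against 7.55 to 15.9 RPKM in DMSO, with 5 of 5 tested members above 0. The adipocyte sum was thus above all DMSO libraries in Vismodegib replicates 1 and 2 and within the DMSO range in Vismodegib replicate 3. Adipoq was listed at 0 in a library, as were Lep and Pparg.

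Skeletal muscle markers had sums between 81.9 and 179 RPKM in Vismodegib and between 9.31 and 182 RPKM in DMSO, with 8 of 8 members above 0. Basal and skin epithelium markers, which accompany Col7a1 and Col17a1 in normal skin, had sums between 141 and 221 RPKM in Vismodegib and between 70.4 and 155 RPKM in DMSO, with 7 of 7 tested members above 0. Krt1 and Lor, markers of the outer layers of skin, were listed at 0 in at least 1 library. Vismodegib replicate 3 held them at 4.26 and 17.6 RPKM, against at most 0.26 and 2.70 RPKM in any other library. Krt10 was at 10.0 RPKM in Vismodegib replicate 3 and at most 2.90 RPKM elsewhere. Carcinoma epithelium sums were between 2522 and 2668 RPKM in Vismodegib and between 1628 and 2768 RPKM in DMSO, with 6 of 8 members above 0. Krt8 and Krt18 make up most of this sum, and their differences were -0.23 and -0.06. Epcam, Krt7, Cldn4 and Elf3 had an unadjusted p under 0.05, with differences of 0.91, 0.78, 0.90 and 1.66. The groups did not overlap in the last 3 of these. Among all genes tested, 2.25% had such a p, 5.03% had groups without overlap and 58.4% had differences above 0. Such a p was also found in 3 of 5 tested adipocyte markers and in 2 of 9 tested pericyte and smooth muscle markers. The fibroblast, skeletal muscle, basal and skin epithelium, and cartilage and bone lists held 1 such marker each. These were Lum, Tnnt3, Krt15 and Ibsp, and the groups did not overlap in Lum, Tnnt3 and Krt15. Of the 9 pericyte and smooth muscle markers, Cspg4 and Notch3 had groups that did not overlap. Schwann cell sums were between 4.19 and 4.82 RPKM in Vismodegib and between 2.30 and 14.9 RPKM in DMSO. In this list 0 of 3 tested members were above 0, and Cdh19 was at 0 in at least 1 library. S100b gave 11.6 RPKM of the highest Schwann cell sum, in DMSO replicate 1. Cartilage and bone markers had sums between 30.3 and 49.0 RPKM in Vismodegib and between 12.4 and 61.2 RPKM in DMSO, with 3 of 3 tested members above 0. Of this list, Matn1, Bglap and Sp7 were at 0 in at least 1 library. Dmp1 was between 7.70 and 29.7 RPKM and Sox9 between 4.48 and 33.5 RPKM over all libraries. Ibsp measured 3.54, 4.00 and 2.50 RPKM in Vismodegib replicates 1, 2 and 3, against 2.90, 0.14 and 0.72 RPKM in DMSO replicates 1, 2 and 3. Macrophage sums were between 718 and 2489 RPKM in Vismodegib and between 1061 and 1924 RPKM in DMSO, with 2 of 6 members above 0. C1qa gave 2284 RPKM of the highest macrophage sum, in Vismodegib replicate 3. The part of these cell types in the collagen differences was not tested.

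**Figure D4:**
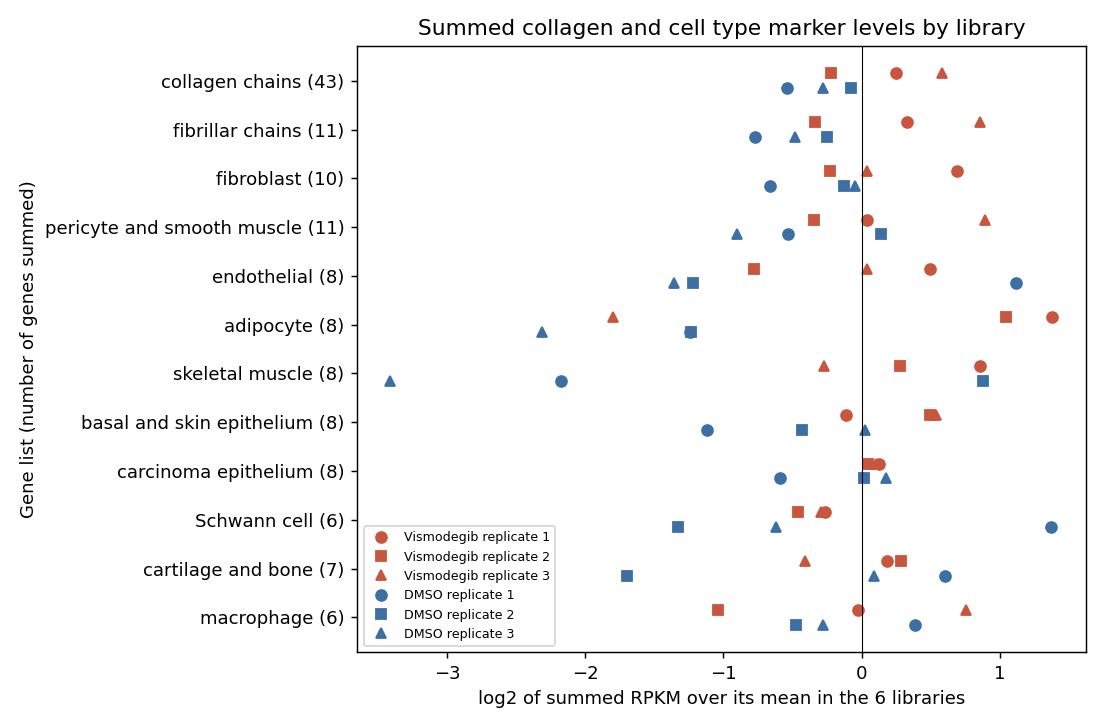
Log2 of the summed RPKM of each gene list over its mean in the 6 libraries, for all collagen chains, the fibrillar chains and the cell type marker lists; red points above each row's centre are Vismodegib libraries, blue points below it are DMSO libraries and the shape gives the replicate. Vismodegib replicate 3 is highest for collagen and for pericyte and smooth muscle markers, Vismodegib replicate 1 for fibroblast and adipocyte markers.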

How the data were processed

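RNA of 3 Vismodegib and 3 DMSO samples of tumour was read as pairs of 150 bases, and groups were taken from the sample titles. The authors deposited RPKM values per gene symbol; the tools named in the submitters' processing notes are Partek, SAMtools, HISAT2, STAR, cutadapt and bcl2fastq 2.17, with build mm10. What each did, which annotation was counted and whether strand was used is not given in the sources used here. RPKM depends on what the other genes contributed to a library's total. Totals were recovered from the steps of RPKM values in 6992 genes with 1 transcript in GENCODE M21. With these totals, between 82.9% and 84.7% of low values, up to 20 reads, were whole within 0.02 reads. A total too high by a whole factor would pass this check too. Estimated reads per chain use the longest annotated transcript, and limits of 3 reads cover counting error only.

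The test was limma (version 3.58.1, under R 4.3.3; eBayes with a trend) on log2(RPKM + 0.5), for genes whose mean reached 0.5 RPKM, two-sided and without covariates; Benjamini-Hochberg adjustment ran over all 11818 genes. This scale understates changes of low genes. Differences are Vismodegib minus DMSO. The steps were checked on simulated data. Members and lists were chosen with earlier results of these data known, so lists are described by counts and medians without a test. The classes of chains follow textbook usage. Values in every library are given for the 10 tested chains of highest mean, the 10 of smallest unadjusted p and their trimer partners, and for chains added after their values were seen; of each pathway list up to 4 members of smallest unadjusted p are named, with a few added for the same reason. Alternatives covered the pseudocount, filter, scaling, variance model, library weights, replicate block and each library left out. Coordinates are from GENCODE M21 and promoter letters from RefSeq. The value of 1 marker gene is not reported here.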

Additional observations from a re-analysis of the deposited data

How the results depend on the processing

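No collagen chain passed under any alternative except library weights, which called 2, Col3a1 and Col18a1, among 420 genes. Those weights were 7.28 for DMSO replicate 3 and between 0.32 and 2.34 for the other libraries, and their estimate stopped before it converged. With them, 15 of the 20 tested chains were above 0, against 18 without, beside 51.7% of all genes; Col5a3, Col27a1 and Col7a1, at -0.022, turned below 0. Over all genes, the replicate block gave 1 call and leaving out single libraries gave 0 to 19, the 19 without DMSO replicate 1. The replicate numbers did not pair the libraries: correlations across genes of same-numbered deviations were 0.0032, 0.038 and -0.30, and not every library correlated best with its own number. The block called no chain. Tested chains without overlap numbered 3 to 9 when a library was left out: 9 without Vismodegib replicate 2, 8 without DMSO replicate 2 and 5 without DMSO replicate 1, beside 11.5%, 13.8% and 27% of all genes. Smaller groups overlap less by construction. For chains under the filter this count was 1 to 4, beside 10.8% to 16.2% of all genes under the filter. With no filter, 34 of 43 chains were above 0, since more chains were counted. The median of the chains stayed above 0 in all alternatives run, from 0.18 with no filter to 0.57 without Vismodegib replicate 2, and the log2 ratio of summed RPKM ran from 0.32 without Vismodegib replicate 3 to 0.72 without Vismodegib replicate 2. Col16a1 ran from -0.20 to 0.11 when libraries were left out, with 0.11 without DMSO replicate 2 and 0.04 without Vismodegib replicate 2; the cause was not tested. Depth limits the 23 chains under the filter most. Of 254 values under alternatives for 15 chains, 3 changed direction; since nothing passes the threshold at the start, staying under it says nothing about stability.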
